A study of Mus musculus with 12 samples.

Results

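The visual cycle genes examined here were Rpe65, Lrat, Rdh5, Rdh8, Rdh10, Rdh12, Abca4, Rbp3, Rlbp1 and Rgr, 10 of the 32867 genes in the table, each found by its symbol and each present. RNA-seq of whole retina was compared between 4 groups of 3 mouse samples. C3H was the control and carried wild-type alleles of Pde6b and Prph2, with 1 sample labelled postnatal day 13, 1 day 23 and 1 day 29. Pde6b rd1 retinas came from day 13, Pde6b rd10 from day 23 and Prph rd2 from day 29. The rd1 allele is a retroviral insertion in the rod phosphodiesterase gene Pde6b, the rd10 allele is a point mutation in the same gene, and rd2 is a mutation of the peripherin gene that leaves photoreceptors without outer segments. According to the study's methods rd1 and rd2 were on a C3H background and rd10 on C57Bl6/J, whereas the sample labels name C57BL6/J for rd2 and no background for the others. Strain and mutation therefore cannot be told apart for rd10 over C3H or rd1 and, if the labels hold, for rd2 over C3H or rd1. Strain also differs between rd10 and rd2 if the methods hold. Each model was sampled at a different age, so age and mutation cannot be told apart in comparisons between models. Comparisons with C3H also differ in age in part, because by label only 1 of the 3 C3H samples shares the day of a given model.

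The visual cycle is the relay that returns bleached retinal to its light-sensitive form. Photoreceptors clear the all-trans retinal released from bleached opsin and reduce it to retinol, a carrier protein in the matrix between the cells takes it across to the retinal pigment epithelium, and the epithelium esterifies it, isomerises it, oxidises it and sends it back. Müller glia, the supporting cells that span the retina, share some of the binding proteins and enzymes.

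Rdh8, Rdh12, Abca4 and Rbp3 are the photoreceptor genes of the cycle. Rpe65, Lrat, Rdh5 and Rgr were grouped here as pigment epithelium genes, and Rlbp1 and Rdh10 as genes of both pigment epithelium and Müller glia. Whole retina does not show which cells the reads came from, and this grouping was not tested. RefSeq promoter windows in GRCm38.p6 were found for 9 of the 10 genes, all but Rdh10. The 250 bases before the start of the 4 photoreceptor genes are shown because they share a cell type, and those of Rpe65 and Rgr because they hold the same motif. Capitals mark matches, on either strand, to TAATCC, the core bound by the photoreceptor factors CRX and OTX2, to TGCTGA, the half-site of the rod factor NRL, and to CATGTG, a core bound by the pigment cell factor MITF, none of which overlapped another. The windows were chr9:20818244-20818493, plus strand for Rdh8, chr12:79208663-79208912, plus strand for Rdh12, chr3:122044210-122044459, plus strand for Abca4, chr14:33953753-33954002, plus strand for Rbp3, chr3:159598931-159599180, plus strand for Rpe65 and chr14:37049015-37049264, minus strand for Rgr.
Rdh8: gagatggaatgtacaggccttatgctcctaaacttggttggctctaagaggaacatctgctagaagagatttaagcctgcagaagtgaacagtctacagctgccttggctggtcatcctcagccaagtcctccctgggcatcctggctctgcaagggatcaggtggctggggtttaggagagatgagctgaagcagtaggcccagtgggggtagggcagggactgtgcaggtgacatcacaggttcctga
Rdh12: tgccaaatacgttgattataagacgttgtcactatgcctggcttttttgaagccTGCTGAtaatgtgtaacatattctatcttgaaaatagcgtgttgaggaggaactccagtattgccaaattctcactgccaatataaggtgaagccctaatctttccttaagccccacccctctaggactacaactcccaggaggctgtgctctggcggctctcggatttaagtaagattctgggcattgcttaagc
Abca4: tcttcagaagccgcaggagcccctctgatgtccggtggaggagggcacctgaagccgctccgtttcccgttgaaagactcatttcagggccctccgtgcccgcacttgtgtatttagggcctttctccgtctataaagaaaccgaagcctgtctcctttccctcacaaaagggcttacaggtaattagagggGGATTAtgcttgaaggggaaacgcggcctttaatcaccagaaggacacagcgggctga
Rbp3: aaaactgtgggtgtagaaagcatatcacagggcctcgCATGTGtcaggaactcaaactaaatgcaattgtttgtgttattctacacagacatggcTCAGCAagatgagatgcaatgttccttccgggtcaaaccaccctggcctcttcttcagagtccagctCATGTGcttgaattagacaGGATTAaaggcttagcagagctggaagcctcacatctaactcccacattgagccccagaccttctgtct
Rpe65: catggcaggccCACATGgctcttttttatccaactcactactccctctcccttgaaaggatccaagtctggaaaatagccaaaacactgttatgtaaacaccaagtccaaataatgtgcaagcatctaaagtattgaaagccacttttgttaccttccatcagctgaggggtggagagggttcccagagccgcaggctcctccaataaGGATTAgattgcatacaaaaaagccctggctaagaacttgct
Rgr: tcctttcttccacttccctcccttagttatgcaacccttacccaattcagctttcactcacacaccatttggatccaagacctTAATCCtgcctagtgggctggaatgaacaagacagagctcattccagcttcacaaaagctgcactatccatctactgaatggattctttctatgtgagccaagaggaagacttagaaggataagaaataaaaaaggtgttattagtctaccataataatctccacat

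TAATCC was found in 4 of these 9 windows (Abca4, Rbp3, Rpe65 and Rgr) and in 6.25% of the 32851 RefSeq windows of the same length. TGCTGA was found in Rdh12, Rbp3 and Rlbp1 and in 16.1% of all windows. CATGTG was found in Rpe65, Rbp3 and Rlbp1 and in 12.3% of all, and CACGTG, another core of this family, in none of the 9 and in 6.02% of all. The closest TAATCC match to the start lay 37 to 42 bases before it in Rpe65, 53 to 58 in Abca4 and 64 to 69 in Rbp3. Rdh8, Rdh5 and Lrat held none of the 4 motifs.

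Read counts on genes were 17049495 to 24755890 per sample, and 3 counts, taken as the detection floor, were worth 0.121 to 0.176 CPM, the count scaled to the library total. The C3H samples of the 3 labelled days had a biological coefficient of variation of 3.09%, less than the same-age samples of rd1 (3.32%), rd10 (4.97%) and rd2 (7.43%). The day labels of C3H were not checked by any other measure, so a same-day C3H sample is one by its label only. C3H samples held Xist at no more than 0.504 CPM together with Y-linked transcripts, rd1 samples held Xist at 3807 CPM or more and no Ddx3y read, and every rd2 and rd10 sample held both. These sex-linked transcripts therefore differed between C3H and every model, and between rd1 and the other models. The study used mice irrespective of sex. Sex cannot be told apart from mutation in comparisons with C3H or rd1, and its part in the results was not tested.

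In FPKM, the authors' read counts scaled for gene length and library size, the members ranged from 805 for Rbp3 to 0.993 for Lrat in C3H. Rbp3, the retinoid carrier of the matrix between photoreceptors and pigment epithelium, had 805 ± 16.4 FPKM in C3H (mean ± SD, n = 3). Rdh12 (129 ± 0.227), Abca4 (121 ± 0.972), Rlbp1 (102 ± 0.814), Rdh8 (64.4 ± 1.91) and Rdh10 (27.3 ± 0.861) followed on the same scale. The pigment epithelium members were far lower, at 3.65 ± 0.325 FPKM for Rgr, 3.21 ± 0.294 for Rpe65, 1.25 ± 0.145 for Rdh5 and 0.993 ± 0.0287 for Lrat. Summed over each class, the 4 photoreceptor members had 1120 ± 14.8 FPKM in C3H and the 4 pigment epithelium members 9.11 ± 0.224. Of a list of 18 pigment epithelium markers, Best1 alone was at 3 counts or fewer in every C3H sample, with 0 to 2, and Mlana had 0 to 4. The list summed to 94.8 to 97.3 normalised CPM per C3H sample.

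**Figure D1:**
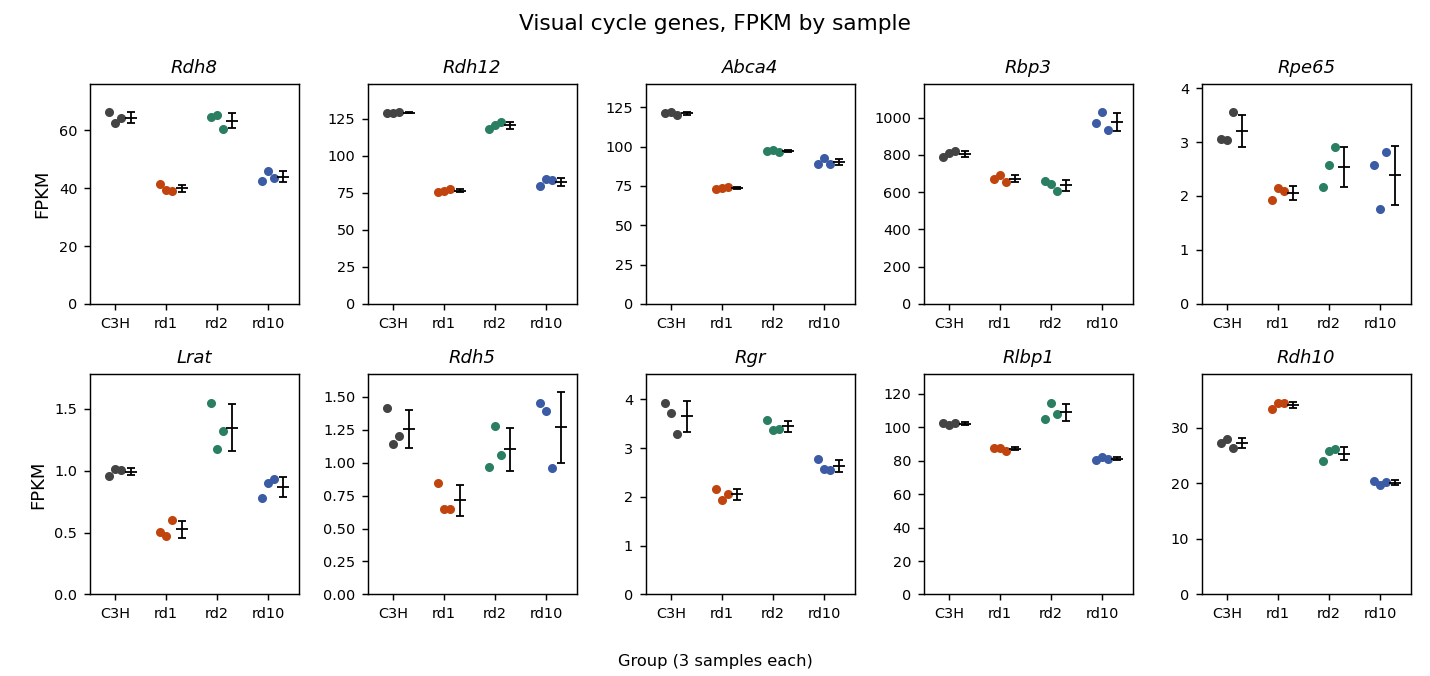
FPKM of the 10 visual cycle genes (y axis, starting at 0) by group (x axis). Dots are the 3 samples of a group and the black bar beside them is their mean ± SD. Rdh8, Rdh12 and Abca4 were low in rd1 and rd10, Rbp3 was high in rd10, and the 4 pigment epithelium genes stayed under 4 FPKM in every sample.

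Comparison of Pde6b rd1 with C3H asked which genes differ at the peak of rod cell death in the fastest model. In rd1, 7 of the 10 visual cycle genes were called lower and none higher. A call means p under 0.05 and at least a 1.5-fold change in edgeR's quasi-likelihood test. Over all 18310 genes tested, 15.0% were called, 6.03% as lower and 8.98% as higher. The median log2 fold change of the members was -0.77, against -0.01 for all genes tested. All 10 members passed an adjusted p of 0.05 (Benjamini-Hochberg over all genes tested), as did 43.2% of all genes, and in FPKM all 10 had groups that did not overlap, as did 54.2% of the 16759 genes with a mean of at least 20 counts. In bulk retina, fewer cells of a type and less RNA per cell cannot be told apart.

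The photoreceptor enzymes were lower by a like amount. Rdh12 (ENSMUSG00000021123, chr12:79208914-79222665), which reduces retinal in photoreceptor inner segments, had 129.0, 129.1 and 129.5 FPKM in the C3H samples and 75.6, 76.1 and 77.7 in rd1. Its log2 fold change was -0.83 ± 0.030 (SE; edgeR adjusted p = 1.37e-16). Abca4 (ENSMUSG00000028125, chr3:122044443-122180123), the transporter that moves retinal-lipid adducts across the outer segment disc membrane, had 122, 122 and 120.0 FPKM in C3H and 72.8, 73.9 and 74.2 in rd1. For both genes every rd1 sample lay below every C3H sample. The log2 fold change of Abca4 was -0.79 ± 0.025 (edgeR adjusted p = 9.98e-18). Rdh8 (ENSMUSG00000053773, chr9:20818503-20826117), the outer segment enzyme that reduces all-trans retinal, had 66.2, 62.4 and 64.4 FPKM in C3H and 41.4, 39.5 and 39.1 in rd1, a log2 fold change of -0.76 ± 0.043 (edgeR adjusted p = 7.75e-13). Both Gm43157 and Gm43158, pseudogenes on the strand opposite to Abca4, had 0 to 3 counts in any sample.

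Rbp3 (ENSMUSG00000041534, chr14:33954003-33964216) stood apart from the other photoreceptor members. It had 787, 808 and 819 FPKM in C3H and 672, 691 and 654 in rd1. Groups did not overlap, but its log2 fold change of -0.33 ± 0.025 (edgeR adjusted p = 9.64e-11) was under the 1.5-fold threshold.

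The 4 pigment epithelium members fell in rd1, from low counts. Rpe65 (ENSMUSG00000028174, chr3:159599175-159625321), the isomerase that remakes the cis form, had 3.05, 3.03 and 3.55 FPKM in C3H and 1.92, 2.15 and 2.09 in rd1. The log2 fold change was -0.72 ± 0.13 (edgeR adjusted p = 0.000122). Lrat (ENSMUSG00000028003, chr3:82892579-82903973), which makes the retinyl esters that RPE65 works on, had 0.960, 1.01 and 1.01 FPKM in C3H and 0.505, 0.471 and 0.601 in rd1, with a log2 fold change of -0.99 ± 0.15 (edgeR adjusted p = 8.82e-06). For both genes every rd1 sample lay below every C3H sample. Rgr (ENSMUSG00000021804, chr14:37034909-37048964), an opsin that binds all-trans retinal, had 3.93, 3.73 and 3.29 FPKM in C3H and 2.16, 1.94 and 2.06 in rd1, with a log2 fold change of -0.90 ± 0.089 (edgeR adjusted p = 1.43e-08). Rdh5 (ENSMUSG00000025350, chr10:128913593-128922888), which oxidises cis-retinol in the last step of the cycle, had 1.42, 1.14 and 1.20 FPKM in C3H and 0.848, 0.647 and 0.647 in rd1. These come from 67 to 79 and 31 to 52 counts, and the log2 fold change was -0.87 ± 0.19 (edgeR adjusted p = 0.000618). The span of Bloc1s1, on the same strand, overlaps an exon of Rdh5, and whether exons of both genes overlap was not determined. Reads of Rdh5 may therefore be counted ambiguously and its values are uncertain. Bloc1s1 itself had 3 to 12 counts in any sample. Lrat, Rpe65 and Rdh5 lost the call when log2(FPKM + 1) was tested with limma, at -0.39, -0.46 and -0.40.

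Of the 2 genes shared with Müller glia, neither was called in rd1. Rlbp1 (ENSMUSG00000039194, chr7:79374870-79387048) encodes the cis-retinoid binding protein CRALBP and had 102, 101 and 103 FPKM in C3H and 87.3, 87.9 and 86.1 in rd1 (log2 fold change -0.30 ± 0.030, edgeR adjusted p = 1.32e-08). Rdh10 (ENSMUSG00000025921, chr1:16105774-16133734), a retinol dehydrogenase that also supplies retinoic acid synthesis, went the other way with 27.3, 28.1 and 26.4 FPKM in C3H and 33.4, 34.4 and 34.5 in rd1 (0.25 ± 0.037, edgeR adjusted p = 6.27e-06). In neither gene did the groups overlap.

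**Figure D2:**
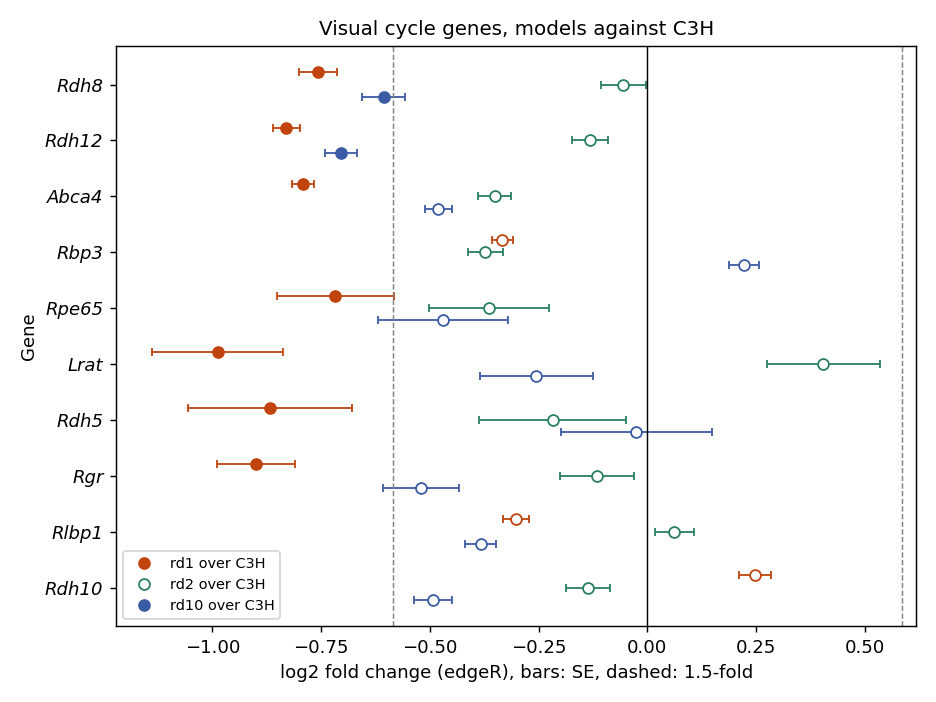
Log2 fold changes of the 10 genes (x axis, points with SE bars) in rd1, rd2 and rd10 over the same 3 C3H samples. Filled points were called, open points were not, and dashed lines mark 1.5-fold. Filled points are 7 in rd1, 2 in rd10 and 0 in rd2.

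Some marker lists moved with this comparison. None of the 8 bipolar markers was called, 1 of the 11 microglia markers tested rose, and of the 11 cone markers 4 fell and 1 rose. Of the 17 rod markers, 12 fell, and their summed level went from 35405 to 36641 normalised CPM in C3H to 18183 to 18285 in rd1. Of the 13 Müller glia markers 5 fell, including Glul, the glutamine synthetase (-1.54 ± 0.027, edgeR adjusted p = 8.7e-23), and their summed level went from 4363 to 4512 to 2574 to 2632. Among the 18 pigment epithelium markers, of which 14 were tested, 3 fell and 1 rose. Their summed level was 94.8 to 97.3 in C3H and 83.1 to 91.5 in rd1, a difference mainly from Ttr. Without Ttr the mean was 78.0 in C3H and 76.5 in rd1. Best1 was at 3 counts or fewer in every C3H and rd1 sample, and Mlana in every rd1 sample. Their part in the visual cycle values was not tested.

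In Pde6b rd10 against C3H, sampled at day 23, 2 of the 10 members were called lower and none higher. Of the 18704 genes tested 23.9% were called, 8.08% as lower and 15.9% as higher, and the members' median log2 fold change was -0.47 against -0.0025 for all genes. An adjusted p under 0.05 was reached by 8 members (54.1% of all genes), and 9 had FPKM ranges that did not overlap (59.2%). The models share the C3H samples, so the comparisons are not independent. Rdh12 had 79.6, 84.2 and 83.5 FPKM in rd10, below every C3H value, and fell by 0.70 ± 0.036 on the log2 scale (edgeR adjusted p = 1.03e-12). Rdh8 had 42.4, 46.0 and 43.4 FPKM, also clear of C3H, and changed by -0.61 ± 0.049 (edgeR adjusted p = 1.35e-09). The Rdh8 call was lost without rd10 replicate 1 (-0.58), with only the day 23 C3H sample (-0.56), with upper-quartile scaling (-0.57) and with limma on log2(FPKM + 1) (-0.54) or log2(FPKM + 0.1) (-0.55).

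Abca4 had 88.9, 92.6 and 89.2 FPKM in rd10, with no overlap with C3H, and its log2 fold change of -0.48 ± 0.031 (edgeR adjusted p = 4.5e-11) was short of 1.5-fold. Rbp3, by contrast, was higher in each rd10 sample, at 968, 1028 and 931 FPKM, than in each C3H sample. Its log2 fold change was 0.22 ± 0.034 (edgeR adjusted p = 1.41e-05) and it was not called. Opn1mw, a cone opsin, rose by 0.70 ± 0.046 (edgeR adjusted p = 5.13e-11). Of the 17 rod markers 8 fell in rd10, and 5 of the 11 cone markers rose. Of the 12 microglia markers 11 rose, and their summed level was 327 to 345 normalised CPM in rd10 against 116 to 119 in C3H. None of the 8 bipolar markers was called, with a summed level of 1737 to 1757 against 2015 to 2083. The part of these lists in the visual cycle values was not tested.

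The pigment epithelium members were not called in rd10. Rgr had 2.79, 2.57 and 2.56 FPKM (-0.52 ± 0.087, edgeR adjusted p = 3.53e-05), and Rpe65 had 2.57, 1.77 and 2.82 (-0.47 ± 0.15, edgeR adjusted p = 0.0119), each below every C3H sample. Without rd10 replicate 2, the lowest, the Rpe65 value was -0.31, and without replicate 3 it reached -0.59 and was called. Lrat had 0.778, 0.898 and 0.934 FPKM (-0.26 ± 0.13, edgeR adjusted p = 0.106). Rdh5, at 1.45, 1.39 and 0.961 FPKM, overlapped C3H and did not differ by this test (-0.02 ± 0.17, edgeR adjusted p = 0.917).

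Rdh10 had 20.5, 19.7 and 20.2 FPKM in rd10, all under C3H (-0.49 ± 0.044, edgeR adjusted p = 6.22e-09), and Rlbp1 had 80.6, 82.5 and 80.9 (-0.38 ± 0.036, edgeR adjusted p = 1.35e-08). Neither reached 1.5-fold. The summed Müller glia marker level was 4629 to 4872 normalised CPM in rd10, with 3 of the 13 markers higher and 2 lower. The summed pigment epithelium marker level was 167 to 179, mainly from Krt18 (47.7 to 52.8 FPKM against 4.28 to 4.64 in C3H), a keratin, and was 98.8 to 105 without it, against 88.4 to 90.4 in C3H. Best1 reached 9 to 13 counts per rd10 sample. Their part in the results was not tested.

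In Prph rd2 against C3H, sampled at day 29, none of the 10 members was called by edgeR (4.57% of 18581 genes were), 6 had an unadjusted p under 0.05, DESeq2 called 0, and the median log2 fold change was -0.13 against -0.0012. An adjusted p under 0.05 was reached by 2 members (9.7% of all genes), both photoreceptor genes, and 7 had FPKM ranges that did not overlap (31.4%). Abca4 had 97.4, 97.7 and 96.3 FPKM, below every C3H sample (-0.35 ± 0.038, edgeR adjusted p = 2.82e-05). Rbp3 had 657, 645 and 605 FPKM, also below every C3H sample (-0.37 ± 0.041, edgeR adjusted p = 3.51e-05). Rdh12 and Rdh8 had 118 to 123 and 60.3 to 65.2 FPKM, with log2 fold changes of -0.13 ± 0.042 and -0.05 ± 0.052 (edgeR adjusted p = 0.0637 and 0.58).

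Lrat was the one pigment epithelium member higher in every rd2 sample, at 1.55, 1.17 and 1.32 FPKM (0.41 ± 0.13, edgeR adjusted p = 0.0666). Rpe65 had 2.16, 2.57 and 2.90 FPKM (-0.36 ± 0.14, edgeR adjusted p = 0.12), Rgr 3.37 to 3.57 and Rdh5 0.963 to 1.28. Rlbp1 had 105, 115 and 108 FPKM and Rdh10 24.1 to 26.2. Of the 17 rod markers 5 fell in rd2.

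Expression relative to other rod genes was described for the 4 photoreceptor members, as the log2 CPM of the gene minus the mean log2 CPM of the 17 rod markers in the same sample, with no test. The rod marker mean itself differed from C3H by -0.92 in rd1, -0.57 in rd10 and -0.45 in rd2 (log2). The summed rod level had the reverse order of rd10 and rd2, at 28169 to 29393 normalised CPM in rd10 and 23683 to 25003 in rd2, against 35405 to 36641 in C3H. Relative to the marker mean, Abca4 moved by 0.10 in rd1, 0.09 in rd2 and 0.09 in rd10, small differences that did not overlap C3H in any model. Rbp3 was 0.56 higher relative to rod markers in rd1 and 0.79 higher in rd10, and 0.07 in rd2. Rdh8 and Rdh12 were 0.39 and 0.31 higher relative to rod markers in rd2, and the differences were 0.13 and 0.06 in rd1 and -0.04 and -0.13 in rd10. With the markers summed, which weights them by level, the rd10 values of Rdh8, Rdh12 and Abca4 were -0.28, -0.38 and -0.16.

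**Figure D3:**
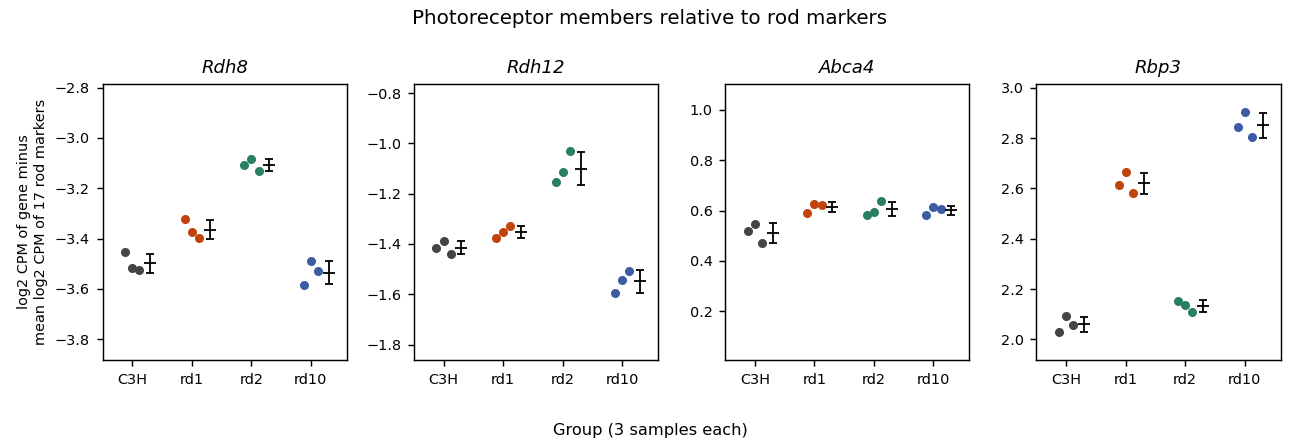
Log2 CPM of each photoreceptor gene minus the mean log2 CPM of 17 rod markers (y axis, each panel spans 1.1 log2 units) by group. Dots are samples and bars are mean ± SD. The rd1 and rd10 samples of Rbp3 lie between 2.58 and 2.90, above the C3H samples at 2.03 to 2.09.

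**Figure D4:**
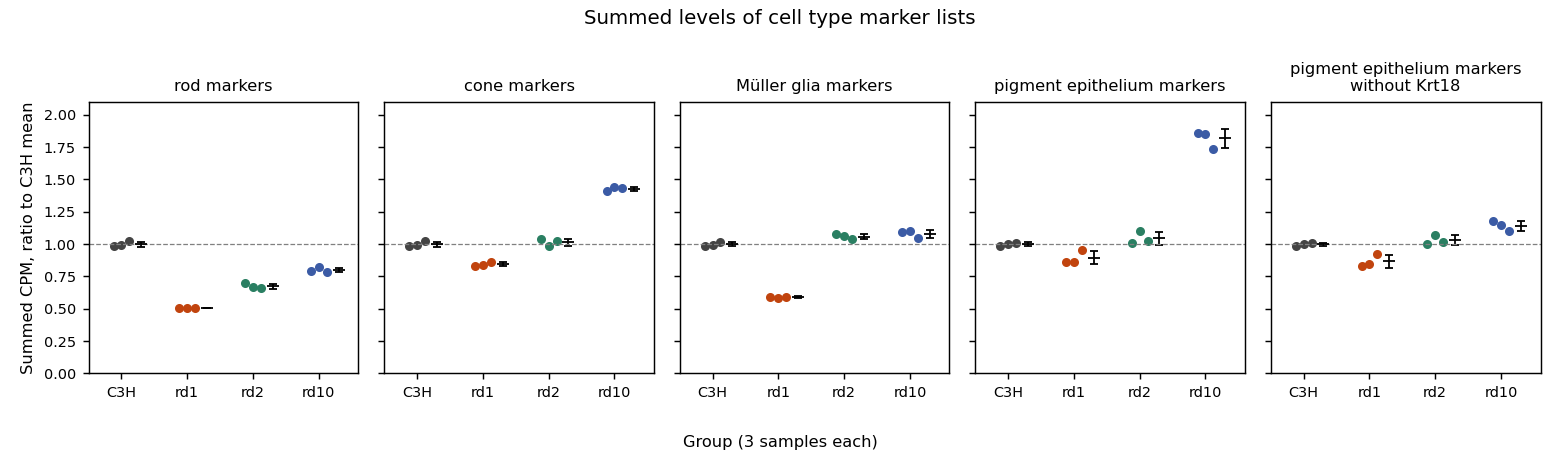
Summed normalised CPM of the genes of a marker list in each sample, divided by the C3H mean (y axis, dashed line at 1), by group. Rod and Müller glia markers are lowest in rd1, and the pigment epithelium list is highest in rd10, at 167 to 179 normalised CPM with Krt18 and 98.8 to 105 without it.

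Compared with each other, rd1 and rd2 differed in 5 members, all higher in rd2, where 8.21% of the 19616 genes tested were called higher and 8.66% lower. Lrat (1.42 ± 0.14, edgeR adjusted p = 1.26e-07), Rgr (0.81 ± 0.085, edgeR adjusted p = 2.28e-07), Rdh8 (0.73 ± 0.050, edgeR adjusted p = 4.28e-10), Rdh12 (0.72 ± 0.037, edgeR adjusted p = 6.21e-12) and Rdh5 (0.67 ± 0.20, edgeR adjusted p = 0.00978) were called higher, on the log2 scale. The Rdh5 call was lost without rd2 replicate 2, at 0.56. With limma on log2(FPKM + 1) the calls of Rdh5 (0.29) and Rgr (0.54) were lost. Rbp3 did not differ by this test (-0.02 ± 0.038, edgeR adjusted p = 0.769).

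Between rd10 and rd1, 2 members were called higher in rd10 (17.6% of genes were) and 1 was called lower (11.2%). Rdh5 (0.87 ± 0.20, edgeR adjusted p = 0.000816) and Lrat (0.76 ± 0.15, edgeR adjusted p = 0.000278) were higher and Rdh10 lower (-0.72 ± 0.045, edgeR adjusted p = 3.3e-11). With limma on log2(FPKM + 1) the calls of Rdh5 (0.40) and Lrat (0.29) were lost. Rbp3 was at the threshold, at 0.58 ± 0.039 (edgeR adjusted p = 7.45e-11), and was called without rd10 replicate 1 (0.59) or 3 (0.62) and without rd1 replicate 2 (0.60). Between rd10 and rd2, 13.5% of genes were called higher in rd10 and 6.16% lower. Rbp3 was called higher (0.60 ± 0.039, edgeR adjusted p = 8.39e-11) and Lrat was called lower (-0.66 ± 0.13, edgeR adjusted p = 0.000345). These calls were lost without rd10 replicate 2 (0.56) or rd2 replicate 3 (0.57), or with no filter on low counts (0.58), for Rbp3, and without rd10 replicate 1 (-0.57) or rd2 replicate 1 (-0.54) for Lrat. Rdh12 was -0.57 ± 0.037 and Rdh8 -0.55 ± 0.049.

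**Figure D5:**
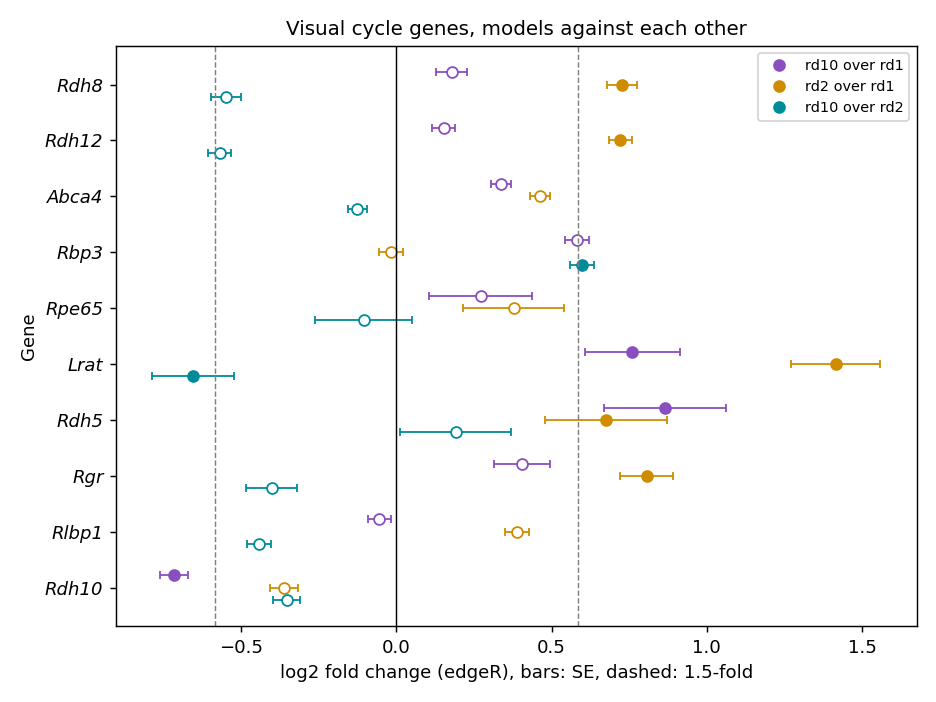
Log2 fold changes of the 10 genes between models (x axis, points with SE bars), from a fit to all 12 samples. Filled points were called and dashed lines mark 1.5-fold. Lrat in rd2 over rd1 is the farthest from 0, at 1.42.

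The order of the normalised levels over the 4 groups was C3H, rd2, rd10, rd1 for Rdh8, Rdh12, Abca4, Rgr and Rpe65. Among these the C3H and rd2 levels did not differ by this test for Rdh8 (edgeR adjusted p = 0.58), Rdh12 (edgeR adjusted p = 0.0637) or Rgr (edgeR adjusted p = 0.451), and no pair of neighbours did for Rpe65. Lrat had the order rd2, C3H, rd10, rd1, in which the step from rd10 to rd1 alone had an adjusted p under 0.05. Rdh5 had C3H, rd10, rd2, rd1, in which the step from rd2 to rd1 alone passed. Rbp3 had the order rd10, C3H, rd1, rd2, in which rd1 and rd2 did not differ by this test. Rlbp1 had rd2, C3H, rd1, rd10, with neither the first pair (edgeR adjusted p = 0.445) nor the last (edgeR adjusted p = 0.237) passing, and Rdh10 had rd1, C3H, rd2, rd10, in which C3H and rd2 did not differ by this test (edgeR adjusted p = 0.115).

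Other genes of retinoid metabolism and transport were read from a list of 46, of which 43 were in the table. In rd1 30 passed the filter on low counts, 3 fell and 2 rose, so that 16.7% were called, near the 15.0% of all genes. Dhrs3, a retinal reductase of photoreceptors, had 31.2 to 33.3 FPKM in C3H and 21.9 to 23.1 in rd1 (-0.59 ± 0.043, edgeR adjusted p = 6.92e-11), Ttr, the plasma carrier of thyroid hormone and the retinol-binding protein, 13.8 to 15.8 and 7.67 to 9.19 (-0.91 ± 0.092, edgeR adjusted p = 1.66e-08), and Dhrs7 changed by -0.59 ± 0.11 (edgeR adjusted p = 0.000108). Rdh1 (1.02 ± 0.18, edgeR adjusted p = 7.9e-05) and Cyp26c1, a retinoic acid hydroxylase (0.94 ± 0.32, edgeR adjusted p = 0.0191), rose. Dhrs3 and Dhrs7 were at the 1.5-fold threshold. Their calls were lost with upper-quartile scaling (-0.56 and -0.55) and with limma on log2(FPKM + 0.1) (-0.51 and -0.49). With the day 13 C3H sample alone their log2 fold changes were -0.57 and -0.46, under 1.5-fold. The Dhrs7 call was also lost with RLE scaling and with no filter on low counts (-0.58 each). Leaving out rd1 replicate 1 (-0.57), rd1 replicate 2 (-0.58) or C3H replicate 2 (-0.57) ended the Dhrs3 call, and leaving out rd1 replicate 2 (-0.55) or C3H replicate 3 (-0.48) that of Dhrs7. The Cyp26c1 call was lost without C3H replicate 1, at 0.59, because its p passed 0.05.

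In rd10, 31 were tested, 4 rose and 2 fell, or 19.4% against 23.9% of all genes. Aldh1a1, which makes retinoic acid from retinal, had 13.9 to 14.9 FPKM in rd10 and 6.49 to 6.63 in C3H (1.08 ± 0.052, edgeR adjusted p = 3.34e-13). Aldh1a3, a related enzyme, rose by 0.97 ± 0.20 (edgeR adjusted p = 0.000347), and Stra6l, which was close to the floor, went from 1 to 3 counts per C3H sample to 19 to 26 in rd10. Crabp1, a retinoic acid binding protein, fell from 24.1 to 27.3 FPKM to 8.66 to 11.5 (-1.42 ± 0.099, edgeR adjusted p = 1.13e-10), and Cyp26b1, which degrades retinoic acid, by 0.82 ± 0.21 (edgeR adjusted p = 0.00268). In rd2, Rdh1 was the 1 gene called of 31 tested (0.60 ± 0.18, edgeR adjusted p = 0.054), or 3.23% against 4.57% of all genes. This call was lost without rd2 replicate 2 (0.58) or 3 (0.52), without C3H replicate 2 (0.54) or 3 (0.57), with both limma fits (0.25 and 0.54) and with the adjusted p as threshold. The median log2 fold changes of the list were -0.06, 0.04 and -0.04 in rd1, rd10 and rd2.

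Between models, 15 of the 32 retinoid genes tested were called in rd10 over rd1 (11 higher, 4 lower), or 46.9% against 28.8% of all genes. In rd10 over rd2 they were 8 (6 higher, 2 lower) (19.7% of all genes), and in rd2 over rd1 4 (3 higher, 1 lower), or 12.5% against 16.9%. Aldh1a1, Aldh1a3 and Rarg, a retinoic acid receptor, were higher in rd10 than in either other model, and Crabp1 and Rdh1 lower. Ttr was lower in rd1 than in rd10 (1.01 ± 0.088) and rd2 (0.90 ± 0.087) on the log2 scale.

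Over the 12 samples, the genes whose log2 CPM was most like that of each member were read among 16575 genes with a mean of at least 1 CPM. The points are 4 groups of 3, so these values describe group means. Rdh8 was most like Rdh12 (Pearson r = 0.987), Slc16a6 (0.987) and Sebox (0.983), and Rdh12 was most like Dhrs3 (0.993), D1Ertd622e (0.989) and Slc16a6 (0.988). For Abca4 they included Gm47160 and Plekhf2 (0.987 each), for Rbp3 Cerk, Slco4a1 and Ptp4a3 (0.981 to 0.985), and for Rlbp1 Madd, Prickle1 and Car14 (0.987 to 0.989). Lrat was most like Camk1d, Fmn1 and Trpm1 (0.974 to 0.980), Rgr like 0610009B22Rik, Rims2 and Cav1 (0.974 to 0.976), Rdh10 like Rnf144a, Ebpl and Racgap1 (0.988 to 0.992), Rpe65 like Ephx2, Cmtr1 and Il9r (0.887 to 0.936) and Rdh5 like Slc35a4 (0.935) and Rpp25 (0.922). Among the members, Rdh10 and Rbp3 were the least alike (r = -0.72). Rgr was closest to the photoreceptor members Rdh8 (0.951) and Rdh12 (0.942). Its r with the other pigment epithelium members was 0.872 (Lrat), 0.741 (Rdh5) and 0.713 (Rpe65).

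CircRNAs, closed loops counted by their back-splice junction reads, were listed for 2 members. Abca4 hosted 16 of them with 70 junction reads over all samples, 3 to 4 per sample in C3H, 0 to 4 in rd1, 5 to 9 in rd2 and 5 to 17 in rd10. Rdh12 hosted 2 with 6 reads. Every rd2 and rd10 sample was above the C3H range for Abca4 in unscaled reads, and the difference was not tested. Junction reads over all circRNAs also differed between samples. They were 14538 to 22036 in C3H, 9819 to 14966 in rd1, 18245 to 21694 in rd2 and 18083 to 25009 in rd10. The Abca4 reads are few and not scaled to these totals, so they do not rank the groups.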

How the data were processed

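Per the study's methods and the labels, the authors extracted total RNA from entire retinas with TRIzol, removed ribosomal RNA, made strand-specific libraries, aligned clean reads to GRCm38 and counted reads per gene with HTSeq 0.11.2; the number of animals per library is not given in the sources used here. The authors deposited raw counts per gene and FPKM computed from those counts and 1 length per gene. They also deposited circRNA counts of back-splice junction reads (TopHat2 2.1.1) and a TPM column for them, which scales junction reads to the sample total with no length term and was not needed here.

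Counts were tested with edgeR 4.0.16 (TMM scaling, filterByExpr, quasi-likelihood F test) in R 4.3.3, each model against C3H on 6 samples and models against each other in a fit to all 12. A call needs p under 0.05 and a fold change of 1.5, the study's thresholds, and adjusted p-values are Benjamini-Hochberg over all genes tested. Normalised CPM uses TMM library sizes, log2 CPM a prior count of 0.5. Gene positions are from GENCODE vM21. The test was run on simulated counts with 200 changed genes and the same spread for every gene. That run does not give error rates for genes with other spreads. Alternatives used DESeq2 1.42.0, limma 3.58.1 on log2(FPKM + 1) and log2(FPKM + 0.1), other scalings and left-out samples.

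The members and gene lists were chosen with earlier results of these data known. Members were all named, and of the other retinoid genes up to 6 called per direction, smallest p first; between models they were mostly counted. No replicate pair agreed within sampling noise. The study calls its samples biological replicates, but beyond the 3 labelled ages of C3H the labels do not say which came from separate animals, so p-values measure the spread between these samples, which may be technical. Floors cover counting error only. A few genes that these rules would name are not reported here.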

Additional observations from a re-analysis of the deposited data

Results flagged for a closer look

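3 genes were singled out because their differences from C3H had opposite signs in 2 models and the models also differed directly in edgeR. Lrat was above C3H in rd2 (0.41 on the log2 scale) and below it in rd1 (-0.99) and rd10 (-0.26), and the direct differences were 1.42 ± 0.14 (rd2 over rd1, edgeR adjusted p = 1.26e-07) and -0.66 ± 0.13 (rd10 over rd2, edgeR adjusted p = 0.000345). Rdh10 was above C3H in rd1 (0.25) and below in rd10 (-0.49), with a direct difference of -0.72 ± 0.045 (edgeR adjusted p = 3.3e-11). Rbp3 was above C3H in rd10 (0.22) and below in rd2 (-0.37), with a direct difference of 0.60 ± 0.039 (edgeR adjusted p = 8.39e-11). The models differ in age and sex-linked transcripts and, for rd10 by the methods and rd2 by the labels, in strain from C3H. These cannot be told apart from the mutation.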

How the results depend on the processing

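Of 950 recomputed log2 fold changes of single members, 914 kept their direction and side of the threshold, 21 lost the call, 5 gained it and 10 changed sign. The sign changes were in values that were not called: Rdh5 in rd10 over C3H was 0.0073 with upper-quartile scaling, 0.0036 with limma on log2(FPKM + 1), 0.10 with the same-day C3H sample and -0.15 to 0.14 with 1 sample left out. Rgr in rd2 over C3H was 0.030 with the same-day C3H sample. With 1 sample left out, Rbp3 in rd2 over rd1 was -0.044 to 0.017 and Rpe65 in rd10 over rd2 -0.23 to 0.057.

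Visual cycle genes called (7 in rd1, 2 in rd10, 0 in rd2 over C3H; 3 in rd10 over rd1, 5 in rd2 over rd1, 2 in rd10 over rd2) were 4, 1, 0, 1, 3 and 1 with limma on log2(FPKM + 1), a scale that shrinks the change of low genes. In rd10 over C3H they were 1 with limma on log2(FPKM + 0.1), with upper-quartile scaling and with the same-day C3H sample, and 1 to 3 with 1 sample left out. In rd10 over rd2 they were 1 with limma on log2(FPKM + 0.1) and 1 to 2 with 1 sample left out. The cause of the other shifts was not tested. With the same-day C3H sample alone, that sample is assumed to vary like the other group.

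Other retinoid genes called (5, 6, 1, 15, 4 and 8 in the same order) were 1, 3, 0, 5, 1 and 3 with limma on log2(FPKM + 1). In rd1 they were 3 with upper-quartile scaling and with limma on log2(FPKM + 0.1). With no filter on low counts, when more genes are tested, they were 10 in rd10 over C3H and 13 in rd10 over rd2. In rd2 over C3H they were 0 with limma on log2(FPKM + 0.1) and with the adjusted p as threshold, and 0 to 1 with 1 sample left out, 0 in 4 of the 6 fits.

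With the rod markers summed, the levels relative to them differed from C3H in rd1, rd2 and rd10 by 0.19, 0.51 and -0.28 for Rdh8, 0.12, 0.43 and -0.38 for Rdh12, 0.16, 0.21 and -0.16 for Abca4, and 0.62, 0.19 and 0.55 for Rbp3 (log2), so that Abca4 changed sign in rd10. With 1 sample left out Abca4 was 0.081 to 0.12 in rd1 and 0.068 to 0.11 in rd10. The summed pigment epithelium marker level in C3H, rd1, rd2 and rd10 was 78.0, 76.5, 82.7 and 156 normalised CPM without Ttr and, in a setting chosen after seeing the data, 89.6, 77.6, 92.2 and 102 without Krt18.

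Replicate numbers were shared between groups, and samples were not treated as paired: in no comparison did all 3 same-number correlations exceed 0.1. Their mean was 0.18 in rd2 over rd1 and 0.20 in rd10 over rd2, with single values of -0.12 to 0.35 and 0.028 to 0.30. The means for other pairs were -0.095 and -0.10. These follow largely from the same-number means, because deviations from a group mean cancel out within the group. The same-number mean was 0.11 in rd10 over rd1, and 0.090, -0.036 and -0.020 in rd1, rd10 and rd2 over C3H. The source of these values was not tested. With the replicate number as a block, visual cycle genes called were 7 in rd1, 2 in rd10 and 0 in rd2 over C3H, and no call of a member changed. Over all genes, limma on log2(FPKM + 1) called 1097, 2035 and 166 in rd1, rd10 and rd2 over C3H against 2749, 4479 and 850. In rd2 the count was 384 with the adjusted p as threshold, 1300 with no filter and 1435 without rd2 replicate 2. Between models it was 2929, 1115 and 1791 against 5644, 3308 and 3862 (rd10 over rd1, rd2 over rd1, rd10 over rd2). Low counts limit Rpe65, Lrat and Rdh5, whose lowest sample had 64, 43 and 31 counts.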
